A study of Mus musculus with 8 samples.

Results

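Macrophages are long-lived phagocytes of every tissue, and monocytes are the circulating cells that enter tissue and can become macrophages there. The 32 genes described here are markers and working parts of those cells: surface receptors, complement C1q, Fc receptors with their adaptors, lineage regulators, and lysosomal or microbe-killing proteins. They were taken as a list of named genes, chosen with earlier results of these data known, and all 32 were found among the 49315 genes of the deposited tables. The study sequenced RNA of the gastrocnemius, the large calf muscle, of C57BL/6 mice at 4 ages: 3, 12, 24 and 30 months, with 2 libraries at each age and 8 in all. No other genotype and no treatment is named in the labels, so by the labels the groups differ in age alone, and the 3-month libraries serve as the young reference. Nothing in the labels ties a library to its own mouse, so the p-values below measure the spread between libraries, which may be technical.

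In skeletal muscle, resident macrophages lie in the connective tissue between fibres, where they clear dying cells and debris, and many of them carry the receptors Lyve1, Folr2, Mrc1, Cd163 or Timd4. Monocytes that carry Ccr2 and Ly6c2 enter from blood, above all after injury, and mature into further macrophages. Both kinds of cell depend on signalling through Csf1r, the receptor for the ligands Csf1 and Il34, and on PU.1, the transcription factor encoded by Spi1. The values come from whole muscle, in which muscle fibres supply most of the RNA, so fewer cells of a type and less RNA per cell cannot be told apart.

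PU.1 belongs to the ETS family, whose members bind DNA around a GGAA core. The 250 bases before the annotated start site were therefore read for the members that have such a window in RefSeq (GRCm38.p6), which were 25 of the 32. Of 8 motifs searched on both strands, AGGAAGT is shown, a choice made after the counts were seen; 3 of the others, GAGGAAGT, GAGGAAG and GAGGAA, overlap it. AGGAAGT was in 10 of the 30 windows of members, belonging to 8 members, against 7.69% of 32851 windows of the same length. The windows of 5 members follow, each 5′ to 3′ on the gene's own strand, because the values of these genes are followed below: C1qb (chr4:136886201-136886450, minus strand), C1qc (chr4:136892915-136893164, minus), Lyz2 (chr10:117282273-117282522, minus), Mpeg1 (chr19:12460520-12460769, plus) and Mrc1 (chr2:14229164-14229413, plus). Capitals mark the match, which in 4 of them lies on the opposite strand and so reads ACTTCCT, and Mpeg1 is shown as a window without it.
C1qb: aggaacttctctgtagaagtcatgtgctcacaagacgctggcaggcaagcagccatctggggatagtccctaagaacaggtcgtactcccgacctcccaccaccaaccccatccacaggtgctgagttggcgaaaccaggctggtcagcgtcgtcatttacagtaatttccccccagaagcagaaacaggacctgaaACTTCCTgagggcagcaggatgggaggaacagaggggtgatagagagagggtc
C1qc: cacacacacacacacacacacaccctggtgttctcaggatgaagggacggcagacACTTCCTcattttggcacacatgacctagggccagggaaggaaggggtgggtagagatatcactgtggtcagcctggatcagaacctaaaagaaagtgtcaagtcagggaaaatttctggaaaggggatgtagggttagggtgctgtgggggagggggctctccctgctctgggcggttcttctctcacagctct
Lyz2: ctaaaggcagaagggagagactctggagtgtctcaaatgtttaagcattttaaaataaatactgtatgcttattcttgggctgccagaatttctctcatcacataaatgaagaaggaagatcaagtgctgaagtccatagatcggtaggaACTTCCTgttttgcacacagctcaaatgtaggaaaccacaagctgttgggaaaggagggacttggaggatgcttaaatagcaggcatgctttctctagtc
Mpeg1: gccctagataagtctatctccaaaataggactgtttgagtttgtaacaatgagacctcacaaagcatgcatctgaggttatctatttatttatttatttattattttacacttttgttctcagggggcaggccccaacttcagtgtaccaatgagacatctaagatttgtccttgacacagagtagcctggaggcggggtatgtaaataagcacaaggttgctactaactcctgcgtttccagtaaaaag
Mrc1: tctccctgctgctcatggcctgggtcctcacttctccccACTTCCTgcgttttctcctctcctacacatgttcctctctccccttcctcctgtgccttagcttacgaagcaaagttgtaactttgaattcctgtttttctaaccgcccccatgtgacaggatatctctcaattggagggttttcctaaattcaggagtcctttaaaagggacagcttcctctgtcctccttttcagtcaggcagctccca
Counted from the start site, the first base of the match was at −53 in C1qb, −195 in C1qc, −100 in Lyz2 and −211 in Mrc1, and the letters were not in the Mpeg1 window. A match of this kind describes letters and shows no binding. The motif was present both in Mrc1, a resident macrophage gene whose 30-month values spanned the 3-month ones, and in Lyz2, whose 30-month values lay above them. Nothing follows from the missing letters about the factor at Mpeg1.

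Total counts ran from 42404254 to 59245029 per library, at which 3 counts, taken as the limit of detection, correspond to 0.0506 to 0.0707 CPM. Levels are given as CPM, which are counts scaled to the library's total, after trimmed-mean scaling between libraries, in the order replicate 1, replicate 2. All 32 members passed the low-count filter, as did 19571 genes in all. In 5 libraries (both at 3 months, replicate 1 at 12 and at 24 months, and replicate 2 at 30 months), 9 kidney genes summed to between 2.91 and 48.0 CPM. In the other 3, replicate 2 at 12 and at 24 months and replicate 1 at 30 months, they summed to 0.175 to 0.597 CPM. The first 5 are called here the libraries with kidney transcripts. This is a set defined from the data at 1 CPM, not a group of the study. Summed CPM of 8 muscle fibre genes ran from 90180 in 30-month replicate 2 to 182108 in 24-month replicate 2.

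The library of 30-month replicate 2 stood apart for these genes. It held the highest value of 31 of the 32 members, whereas it held the highest value of 16.5% of all tested genes. The exception was Lyve1, highest in 3-month replicate 1. The summed level of the 32 members was 279 and 312 CPM at 3 months, 319 and 206 at 12, 304 and 191 at 24, and 307 and 554 at 30 months. At the low end, 24-month replicate 2 held the lowest value of 16 members and 12-month replicate 2 that of 11, against 20.2% and 14.7% of all genes. The same libraries ordered by muscle fibre genes gave 30-month replicate 2 the lowest sum and 24-month replicate 2 the highest, and the part of fibre content in the members' levels was not tested.

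**Figure D1:**
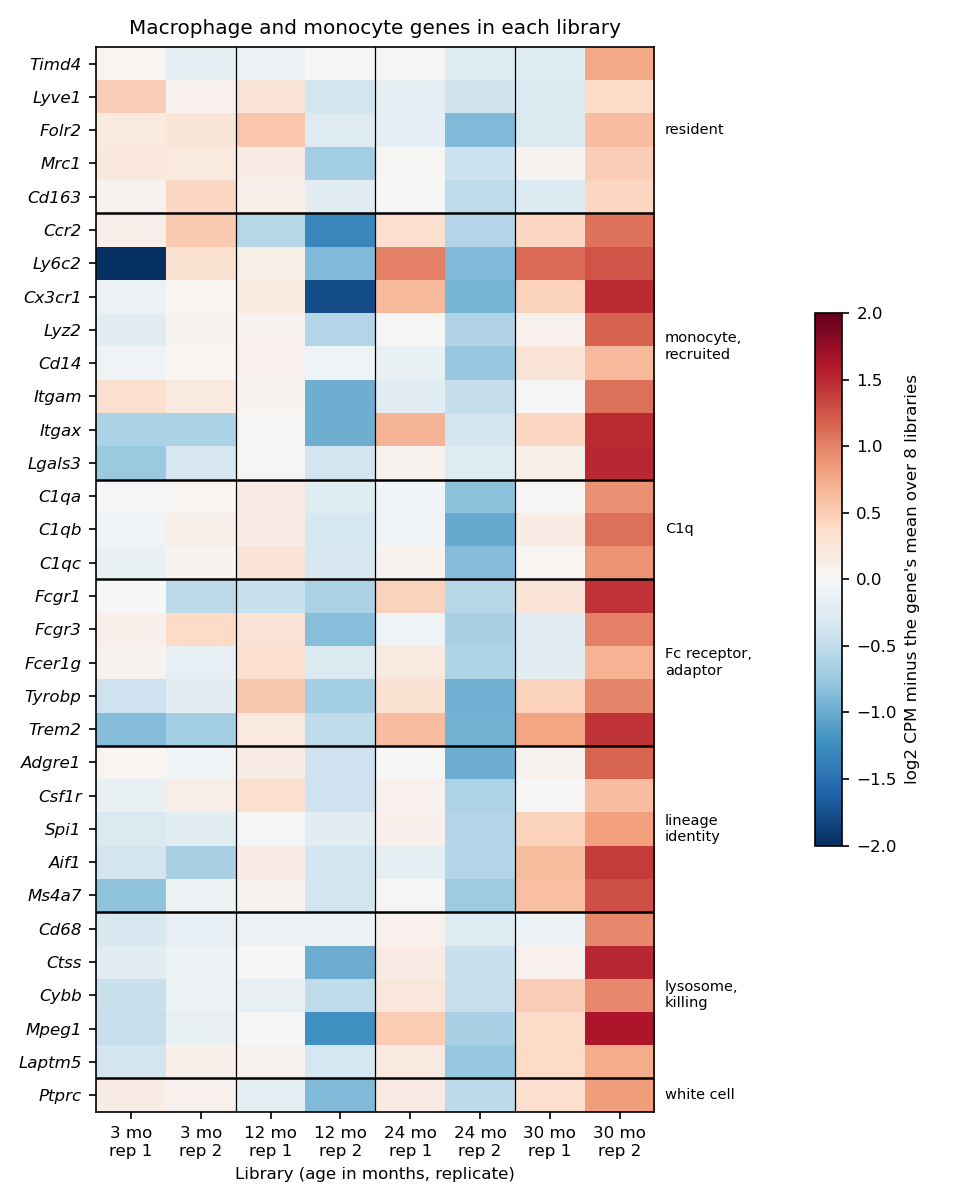
Heat map of the 32 members (rows, grouped by role) in the 8 libraries (columns, by age and replicate), coloured by log2 CPM minus the gene's own mean over the 8 libraries, with colours held at 2 either way. The column of 30-month replicate 2 holds the highest value of 31 of 32 members, and replicate 2 at 12 and at 24 months are the low columns.

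At 30 against 3 months, 30 of the 32 members had a log2 difference above 0, as did 51.4% of all tested genes. The median of the members was 0.72, and the median of all tested genes 0.01. With age alone in the model of edgeR's quasi-likelihood test, 0 of the 32 reached the threshold, an adjusted p below 0.05, where 0.148% of all genes did, and 11 members against 5.18% of genes were higher at an unadjusted p below 0.05. DESeq2 called 2 members, Lgals3 and Trem2, and 1.09% of all genes. Without the low-count filter edgeR called 5, Itgax, Trem2, Aif1, Ms4a7 and Cybb, and 1.12% of all genes. In 20 members the 30-month values lay above both 3-month values, and in 21.1% of all genes; no member lay below both, where 20.2% of all genes did.

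The outcome was different once the presence of kidney transcripts entered the model beside age. In that fit, 20 of the 32 members passed at 30 against 3 months, all of them higher, where 2.13% of all tested genes passed in either direction and 1.48% were higher. The median log2 difference of the members was 0.98. The 20 were 4 of the 8 monocyte and recruited cell genes, all 3 C1q genes, 3 of the 5 Fc receptor and adaptor genes, all 5 lineage genes, 4 of the 5 lysosomal and killing genes, and Ptprc, which encodes the pan-leukocyte surface protein CD45. None of the 5 resident macrophage genes passed in it. At an unadjusted p below 0.05 there was 1 of them, and the share of all genes at that level is not given here. Both 3-month libraries carry kidney transcripts, so the kidney term was estimated from the later ages alone and carried over to 3 months. As a yes-or-no term it treats 48.0 and 15.5 CPM at 3 months like 2.91 CPM in 30-month replicate 2. Omitting 30-month replicate 2 leaves a single 30-month library, without kidney transcripts, against 3-month libraries that carry them. With all 8 libraries, the model with kidney transcripts leaves 3 residual degrees of freedom, and it rests on 30-month replicate 2. Without this library 3 members passed, Tyrobp, Trem2 and Mpeg1, and 0.548% of all genes. Without 30-month replicate 1 there were 17, of which 16 were among the 20, and 2.12% of all genes.

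**Figure D2:**
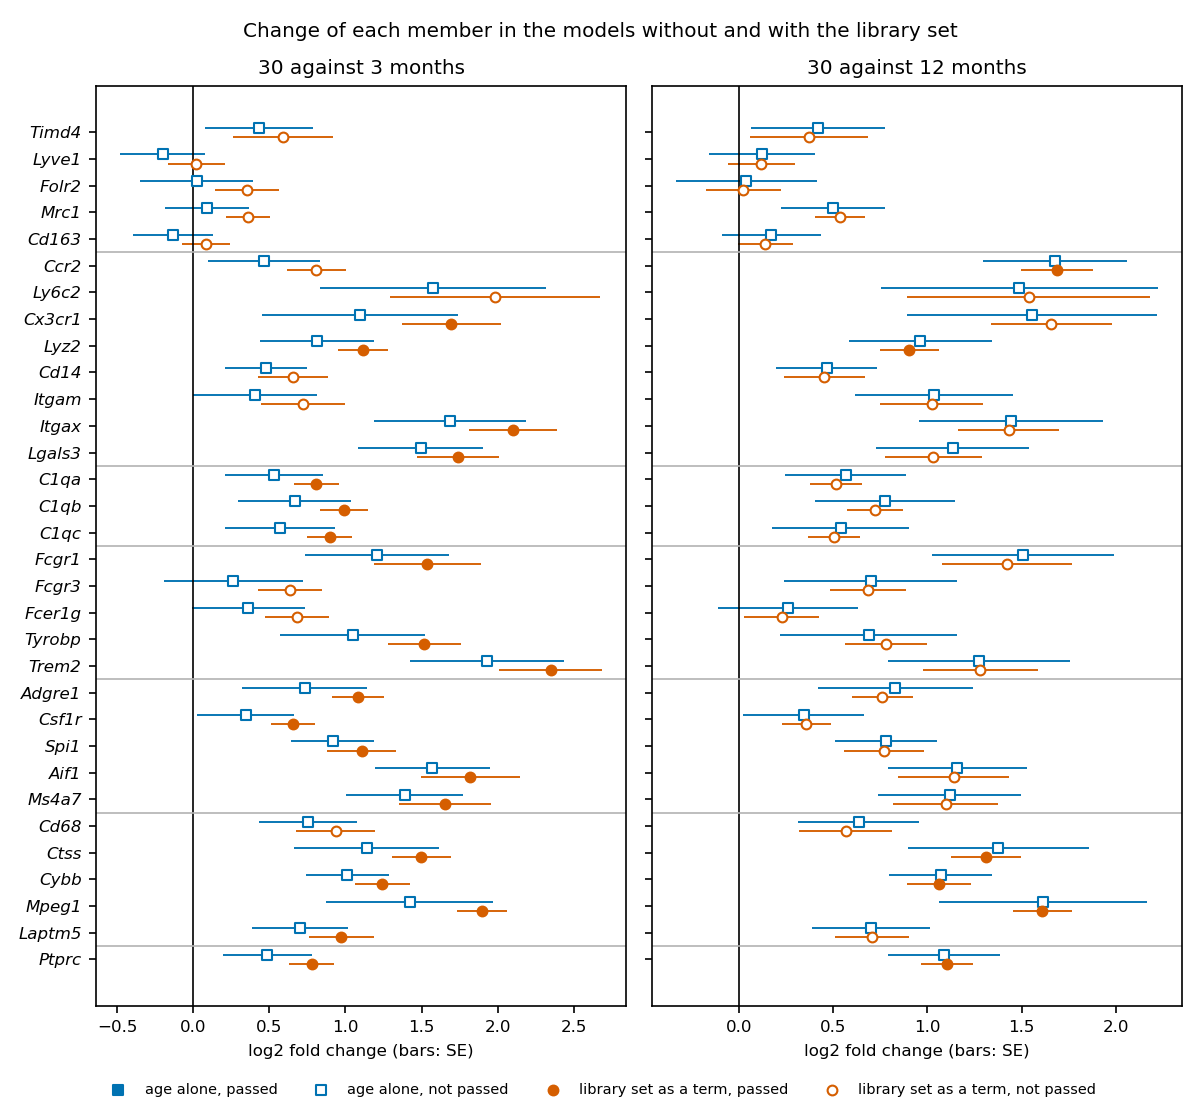
Log2 difference of each member with its standard error, 30 against 3 months and 30 against 12 months, from the model with age alone and the model that adds the presence of kidney transcripts; filled points passed an adjusted p of 0.05. No point is filled for age alone, while 20 members (30 against 3 months) and 6 members (30 against 12 months) are filled in the other model, and Lyve1, Folr2, Mrc1 and Cd163 lie nearest to 0 at 30 against 3 months.

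Within a single age the members also differed between the libraries with and without kidney transcripts. The library with them was higher in 30 of 32 members at 12 months (median log2 difference 0.62), in 32 of 32 at 24 months (0.70) and in 32 of 32 at 30 months (0.87). Of all tested genes, 49.8%, 51.2% and 51.7% were higher at those ages, and 30 members against 22.2% of genes were higher at all 3. The muscle fibre genes summed lower in the library with kidney transcripts at each of these ages. Their sums were 126954 against 155694 CPM at 12, 124853 against 182108 at 24 and 90180 against 159964 at 30 months. Whether the tissue carrying the kidney transcripts brought macrophage RNA with it was not tested, nor was the part of fibre content. Comparing only libraries with kidney transcripts, which leaves 1 library at 30 months and no test, 32 of 32 members were higher at 30 than at 3 months, with a median of 1.07, and so were 51.6% of all genes. The kidney sum itself ran the other way, from 48.0 and 15.5 CPM in the 3-month libraries to 2.91 CPM in 30-month replicate 2.

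The resident macrophage genes differed least between 30 and 3 months: with kidney transcripts in the model, their 5 log2 differences were the smallest of the 32. Mrc1, the mannose receptor that takes up glycoproteins, was at 38.1 and 37.7 CPM at 3 months, 36.7 and 20.5 at 12, 33.6 and 24.7 at 24, and 34.2 and 46.5 at 30 months. Cd163, the scavenger receptor for haemoglobin bound to haptoglobin, was at 26.9 and 34.1, 27.4 and 21.8, 25.7 and 17.9, and 21.1 and 34.4 CPM at the same ages. For both genes the 30-month values lay on either side of the 3-month ones.
The hyaluronan receptor Lyve1, which lymphatic endothelium also makes, was at 13.5 and 10.1 CPM at 3 months, 11.4 and 7.35 at 12, 8.31 and 7.21 at 24, and 7.84 and 12.6 at 30 months. Folr2, a folate receptor, was at 2.57 and 2.67, 3.29 and 1.89, 1.97 and 1.23, and 1.85 and 3.46 CPM in that order. Timd4, which binds phosphatidylserine on dying cells, was the scarcest of the 5 at 0.760 to 1.54 CPM, and its 30-month values were 0.769 and 1.54. Lyve1, Folr2, Mrc1 and Cd163 lay below the 3-month range in both 24-month libraries, as did 19.4% of all genes. Log2 differences at 30 against 3 months were −0.20 ± 0.28 (SE) for Lyve1, −0.14 ± 0.26 for Cd163, 0.02 ± 0.37 for Folr2, 0.09 ± 0.28 for Mrc1 and 0.43 ± 0.36 for Timd4. Their median was 0.02 with age alone and 0.35 with kidney transcripts in the model, in which Lyve1 and Cd163 turned to 0.02 and 0.08.

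Among the monocyte and recruited cell genes, the differences were larger and 4 of 8 passed with kidney transcripts in the model. Lyz2, lysozyme of macrophages and neutrophils (chromosome 10, 117277334 to 117282274, minus strand), had the highest level per length of exon of all members, a mean of 51.8 CPM per kilobase. It was at 52.2 and 63.2 CPM at 3 months, 63.7 and 40.5 at 12, 61.9 and 40.3 at 24, and 64.4 and 138 at 30 months. The 30-month values exceeded both 3-month values, replicate 1 by little and replicate 2 by far, with means of 101 ± 52.3 CPM (SD, n = 2) and 57.7 ± 7.74 CPM. The log2 difference was 0.81 ± 0.38 (adjusted p = 0.614) with age alone and 1.12 ± 0.17 (adjusted p = 0.00731) with kidney transcripts in the model. Lyz2 has a near-identical neighbour, Lyz1, and reads shared between them may have been split or dropped.

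Lgals3, galectin-3, a carbohydrate-binding protein of activated macrophages, was at 2.87 and 3.80 CPM at 3 months, 4.89 and 3.71 at 12, 5.04 and 3.99 at 24, and 5.18 and 13.6 at 30 months. Itgax, the integrin CD11c of dendritic cells and some macrophages, was at 0.519 in both 3-month libraries, 0.818 and 0.410 at 12, 1.28 and 0.623 at 24, and 1.08 and 2.26 CPM at 30 months. For both genes the lower 24-month value was already above both 3-month values. The adjusted p was 0.309 for Lgals3 and 0.332 for Itgax with age alone, at log2 differences of 1.49 ± 0.41 and 1.68 ± 0.50. With kidney transcripts in the model they were 1.74 ± 0.27 (adjusted p = 0.0128) and 2.10 ± 0.29 (adjusted p = 0.00447).

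Cx3cr1, the fractalkine receptor of patrolling monocytes and many resident macrophages, was at 0.627 and 0.686 CPM at 3 months, 0.760 and 0.195 at 12, 1.05 and 0.351 at 24, and 0.923 and 1.88 at 30 months. It passed with kidney transcripts in the model (1.70 ± 0.33, adjusted p = 0.0241) and not with age alone (1.10 ± 0.64, adjusted p = 0.709). Its annotated span overlaps other genes on both strands, among them Xirp1, a muscle gene, so its counts are uncertain.
Ccr2, the chemokine receptor by which monocytes leave marrow and enter tissue, had its lowest mean at 12 months, at 2.504 ± 0.894 CPM (SD, n = 2). It was at 4.95 and 6.68 CPM at 3 months, 3.14 and 1.87 at 12, 5.82 and 3.08 at 24, and 6.20 and 9.83 at 30 months. Its difference of 30 against 3 months was 0.46 ± 0.37 (adjusted p = 0.812), and 0.81 ± 0.20 (adjusted p = 0.0603) with kidney transcripts in the model. Ly6c2, the Ly6C antigen of inflammatory monocytes, was the scarcest member per length and was at or under the detection limit in 3-month replicate 1, with 2 to 23 counts per library. Its level was 0.0432 and 0.223 CPM at 3 months, against 0.395 and 0.432 at 30, and it has a near-identical neighbour, Ly6c1. Cd14, a co-receptor for bacterial lipopolysaccharide, was at 1.86 and 2.00 CPM at 3 months and 2.33 and 3.05 at 30 months. Itgam, the integrin CD11b, was at 1.69 and 1.54 and at 1.36 and 2.89 CPM, so that its 30-month values lay on either side of the 3-month ones.

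**Figure D3:**
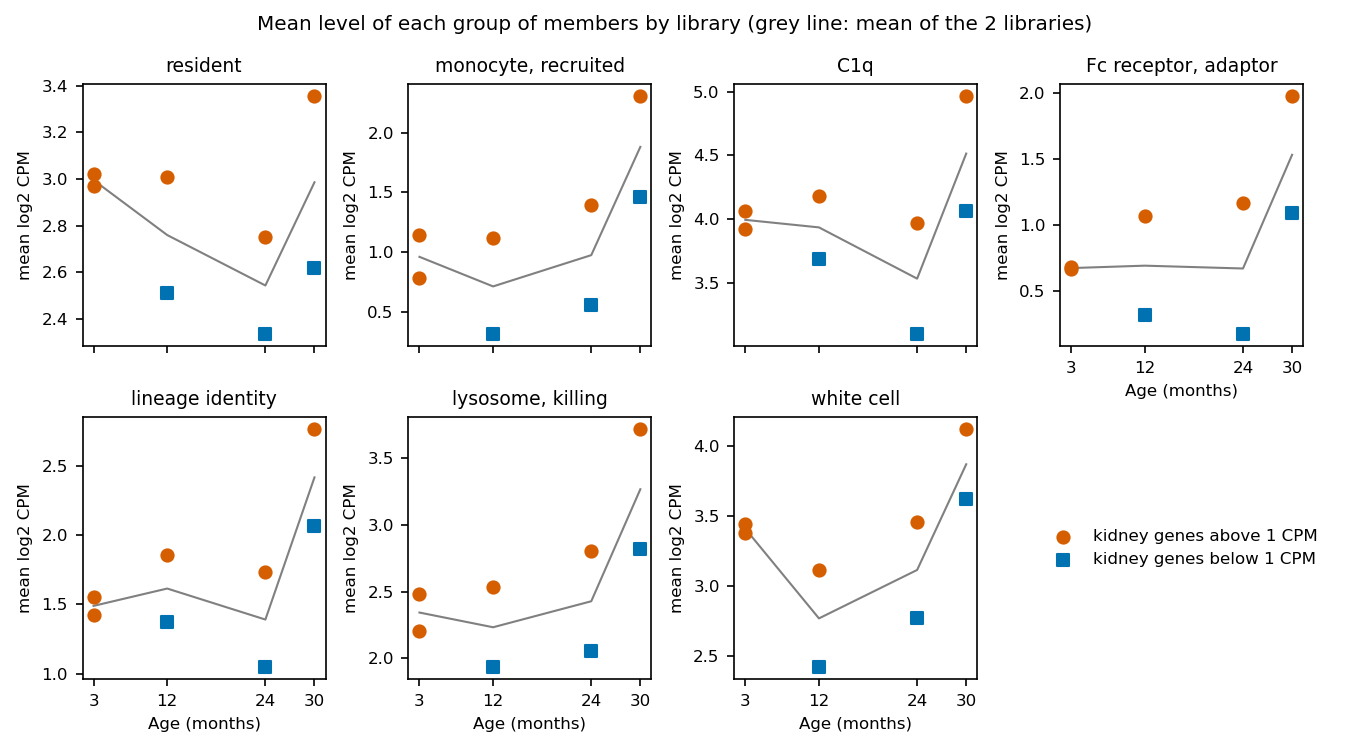
Mean log2 CPM of the members of each of 7 role groups (panels) against age in months; each point is 1 library, its marker shows whether 9 kidney genes summed above or below 1 CPM, and the grey line joins the means of the 2 libraries. The resident macrophage panel ends at 30 months with 2.62 and 3.35, around its 3-month values of 3.02 and 2.97, whereas the monocyte and recruited cell panel ends at 1.46 and 2.30 from 0.78 and 1.14.

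The distance between these 2 groups was smallest in the 30-month libraries. Mean log2 CPM of the 5 resident genes minus that of the 8 monocyte and recruited cell genes was 2.24 and 1.83 at 3 months, 1.89 and 2.20 at 12, 1.36 and 1.78 at 24, and 1.16 and 1.05 at 30 months. Both 30-month values lay below the other 6. Leaving out the scarce Ly6c2, the distance was 1.61 and 1.39, 1.43 and 1.74, 0.97 and 1.29, and 0.78 and 0.57 in the same order. As a ratio of summed CPM, resident over recruited, it was 1.27 and 1.09 at 3 months and 1.04 and 1.07 at 12. The ratio was 0.898 and 1.02 at 24 months and 0.804 and 0.571 at 30 months. Lyz2 made up most of the recruited sum, 52.2 of 64.8 and 63.2 of 78.6 CPM at 3 months. At 30 months it was 64.4 of 81.9 and 138 of 172 CPM, so this ratio mostly follows Lyz2. At each of the 3 later ages the distance was smaller in the library with kidney transcripts. With 2 libraries an age, an exact permutation test of 30 against 3 months cannot give a p below 0.333, and none is reported.

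**Figure D4:**
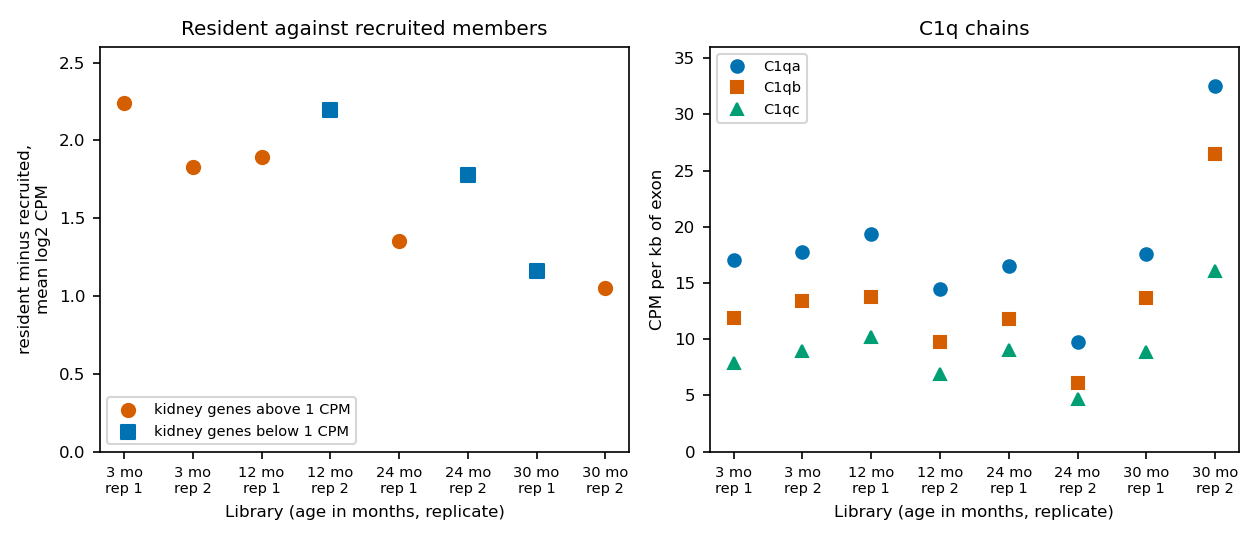
Left, mean log2 CPM of the resident macrophage genes minus that of the monocyte and recruited cell genes in each library, by age in months; the 30-month libraries are at 1.16 and 1.05, the lowest of the 8. Right, CPM per kilobase of exon of C1qa, C1qb and C1qc in each library; the order C1qa, C1qb, C1qc holds in all 8.

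The 3 C1q genes encode the chains that assemble into C1q, the recognition part of the classical complement pathway, which tissue macrophages make. They lie side by side on chromosome 4, between 136880129 and 136898803, on the minus strand. C1qa was at 17.7 and 18.4 CPM at 3 months, 20.1 and 15.1 at 12, 17.2 and 10.2 at 24, and 18.3 and 33.8 at 30 months. C1qb was at 13.0 and 14.6, 14.997 and 10.6, 12.8 and 6.68, and 14.9 and 28.8 CPM, and C1qc at 15.2 and 17.3, 19.8 and 13.3, 17.4 and 9.10, and 17.1 and 31.0 CPM. In each of the 3, replicate 1 at 30 months was close to the 3-month values, and replicate 2 alone was far above them. Log2 differences of 0.53 to 0.67 did not pass with age alone, and 0.81 ± 0.15 (C1qa), 0.99 ± 0.16 (C1qb) and 0.90 ± 0.15 (C1qc) passed with kidney transcripts in the model (adjusted p = 0.0204, 0.00956 and 0.0117). Without 30-month replicate 2, the age-alone differences were 0.02, 0.12 and 0.08.
The 3 chains kept similar ratios across libraries. Per length of exon, the level of C1qa over that of C1qb was between 1.23 and 1.60 in the 8 libraries, and that of C1qc over C1qb between 0.605 and 0.767.

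Trem2, a lipid-sensing receptor of macrophages that signals through the adaptor Tyrobp (DAP12), had the largest difference of all 32 members. The gene lies on chromosome 17 from 48346401 to 48354147, plus strand. It was at 0.411 and 0.464 CPM at 3 months, 0.857 and 0.527 at 12, 1.15 and 0.390 at 24, and 1.30 and 2.05 at 30 months. Both 30-month values lay above all 6 others, at means of 1.67 ± 0.532 CPM and 0.437 ± 0.0375 CPM (SD, n = 2). The log2 difference was 1.93 ± 0.51 (adjusted p = 0.263) with age alone and 2.35 ± 0.34 (adjusted p = 0.0064) with kidney transcripts in the model, and DESeq2 called it as well. Tyrobp was at 2.42 and 2.78 CPM at 3 months, 4.69 and 1.99 at 12, 3.97 and 1.66 at 24, and 4.42 and 6.33 at 30 months. It passed with kidney transcripts in the model (1.52 ± 0.24, adjusted p = 0.00946). Over single-library omissions with age alone, the log2 difference ran from 1.56 to 2.22 for Trem2 and from 0.77 to 1.28 for Tyrobp. Without 30-month replicate 2, the model with kidney transcripts compares 30 with 3 months only through the kidney term of 12 and 24 months.

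The Fc receptors bind the constant part of antibodies. Fcgr1, the high-affinity receptor, was at 0.670 and 0.464 CPM at 3 months, 0.487 and 0.429 at 12, 0.920 and 0.448 at 24, and 0.791 and 1.80 at 30 months, and it passed with kidney transcripts in the model (1.54 ± 0.35, adjusted p = 0.0491). Fcgr3, a low-affinity receptor, was at 4.84 and 5.93 CPM at 3 months and 3.87 and 9.04 at 30 months. Fcer1g, the signalling chain shared by Fc receptors, was at 2.72 and 2.30 CPM at 3 months and 2.22 and 4.21 at 30 months. In Fcgr3 and Fcer1g replicate 1 at 30 months lay below both 3-month values, and neither passed in either model.

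The 5 lineage genes passed together in the model with kidney transcripts. With age alone 0 of them passed, except that Aif1 and Ms4a7 did without the low-count filter. Spi1, encoding PU.1, was at 1.79 and 1.87 CPM at 3 months, 2.14 and 1.89 at 12, 2.36 and 1.46 at 24, and 3.03 and 3.89 at 30 months. Aif1, the actin-binding protein Iba1, was at 0.475 and 0.389, 0.682 and 0.468, 0.536 and 0.409, and 0.945 and 1.62 CPM in that order. Ms4a7, a membrane protein of macrophages, was at 0.605 and 0.983, 1.11 and 0.819, 1.07 and 0.643, and 1.60 and 2.58 CPM. In these 3 genes both 30-month libraries were above the other 6, as they were in Ly6c2, Lyz2, Cd14, Lgals3, Trem2, Cybb, Laptm5 and Ptprc. The share of all tested genes with that order was not computed.
Their differences at 30 against 3 months were 1.11 ± 0.23 for Spi1, 1.82 ± 0.32 for Aif1 and 1.66 ± 0.30 for Ms4a7 (adjusted p = 0.0306, 0.0168 and 0.0195, kidney transcripts in the model). Adgre1, the F4/80 antigen that marks mouse macrophages, was at 7.82 and 7.29 CPM at 3 months, 8.43 and 5.67 at 12, 7.66 and 3.84 at 24, and 7.997 and 17.05 at 30 months. Csf1r, the receptor that keeps macrophages alive, was at 29.1 and 35.5, 40.5 and 24.2, 34.4 and 21.1, and 32.4 and 49.6 CPM. For Csf1r the 30-month values overlapped those at 3 months, and its difference was the smallest of the 5, at 0.34 ± 0.32 with age alone and 0.66 ± 0.14 with kidney transcripts in the model. Csf1r overlaps Hmgxb3, a gene of the other strand, and reads of the pair may not be separable.

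Mpeg1, perforin-2, a pore-forming protein that kills engulfed bacteria, had the lowest adjusted p of the members with kidney transcripts in the model. The gene lies on chromosome 19 from 12460779 to 12465284, plus strand. It was at 5.25 and 6.51 CPM at 3 months, 7.25 and 3.08 at 12, 10.3 and 4.64 at 24, and 9.40 and 22.1 at 30 months. The log2 difference was 1.42 ± 0.55 (adjusted p = 0.531) with age alone and 1.90 ± 0.16 (adjusted p = 0.000223) with kidney transcripts in the model. Cybb, the membrane subunit of the oxidase that makes superoxide, was at 4.52 and 5.73 CPM at 3 months, 5.53 and 4.31 at 12, 7.24 and 4.46 at 24, and 8.70 and 12.0 at 30 months. Both 30-month values lay above the other 6, and its difference was 1.01 ± 0.27 (adjusted p = 0.285) with age alone and 1.24 ± 0.18 (adjusted p = 0.00673) in the other model.
Ctss, cathepsin S, the protease that trims the invariant chain in antigen presentation, was at 6.74 and 7.32 CPM at 3 months, 7.97 and 3.98 at 12, 8.81 and 5.79 at 24, and 8.41 and 22.6 at 30 months. Laptm5, a lysosomal membrane protein of blood cells, was at 5.53 and 7.71 CPM at 3 months and 9.51 and 12.0 at 30 months, without overlap. Ctss and Laptm5 passed with kidney transcripts in the model (1.4995 ± 0.19, adjusted p = 0.00321, and 0.97 ± 0.21, adjusted p = 0.0431). Cd68, a lysosomal glycoprotein of macrophages, did not pass (0.94 ± 0.26, adjusted p = 0.0966), and its values at 30 months were 2.57 and 5.39 CPM against 2.25 and 2.48 at 3 months.
Ptprc was at 10.8 and 10.3 CPM at 3 months, 8.63 and 5.30 at 12, 10.9 and 6.78 at 24, and 12.2 and 17.3 at 30 months. It passed with kidney transcripts in the model (0.78 ± 0.15, adjusted p = 0.0221), and both 12-month values lay below those at 3 months.

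The comparison of 30 against 12 months uses the same 30-month libraries, replicate 2 included, as that of 30 against 3 months, so the 2 are not independent. In it 32 of 32 members had a log2 difference above 0, as did 49.2% of all tested genes. The median was 0.80 for the members. No member passed with age alone, where 0.00511% of genes did, while 15 members against 3.43% of genes were higher at an unadjusted p below 0.05. DESeq2 called 1 member, Ccr2, and 0.336% of genes, and edgeR without the low-count filter 3, Ccr2, Cybb and Ptprc, and 0.414% of genes. With kidney transcripts in the model, 6 members passed, all higher, where 0.281% of genes passed and 0.235% were higher: Ccr2, Lyz2, Ctss, Cybb, Mpeg1 and Ptprc. The log2 difference of Ccr2 was 1.69 ± 0.19 (adjusted p = 0.00922), larger than its difference against 3 months, which did not pass; the difference between the 2 was not tested. Without 30-month replicate 2, 3 members passed there, Ccr2, Mpeg1 and Ptprc, and 0.205% of genes.
Both kinds of library can be compared here separately, 1 against 1 and with no test. Among libraries with kidney transcripts, 32 of 32 members were higher at 30 than at 12 months, with a median log2 difference of 1.01. Among those without, 28 of 32 were higher, with a median of 0.70. The 28 were higher in both, as were 28.9% of all tested genes. In 17 members the 30-month values lay above both 12-month values, and in 16.1% of all genes.

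At 24 and at 12 against 3 months no member passed. These comparisons use the same 3-month libraries as that of 30 months. At 24 months 14 of 32 members were above 0 (51.9% of all genes) with a median of −0.10, and at 12 months 15 of 32 (50.5% of all genes) with a median of −0.03. With kidney transcripts in the model, 21 of 32 were above 0 at 24 months (51.5% of all genes) with a median of 0.17, and 25 of 32 at 12 months (51.0% of all genes) with a median of 0.28, where the median of all genes was 0.01 at both ages. The count past the threshold was 0 with age alone (0.102% of genes at 24 months and 0.0409% at 12), with kidney transcripts in the model (0.363% and 0.148%) and by DESeq2 (0.693% and 0.374%). At an unadjusted p below 0.05, with age alone, 0 members were higher at 24 months (4.23% of genes) and 1, Ccr2, was lower at 12 months (2.34% of genes). In the other model 6 members were higher at 24 months (5.03% of genes) and 4 at 12 months (4.46% of genes), where 2, Ccr2 and Ptprc, were lower (3.14% of genes). At 24 months 2 members lay above both 3-month values, Itgax and Lgals3, and 9 lay below both, where 20.0% of all genes lay above and 19.4% below.
The test of any difference among the 4 ages called 0 members with age alone (0.0613% of genes). DESeq2 called 3 for it, Ccr2, Lgals3 and Cybb (1.18% of genes). It called 7 members without the low-count filter (1.40% of genes) and 17 with kidney transcripts in the model (1.04% of genes). A slope per month of age called 0 members with age alone (0.133% of genes; 10 higher at an unadjusted p below 0.05, as were 5.43% of genes), 2 by DESeq2 (Itgax and Trem2; 1.52% of genes) and 8 with kidney transcripts in the model, all higher (1.51% of genes, 0.925% higher). The 8 were Cx3cr1, Itgax, Lgals3, Fcgr1, Trem2, Ctss, Cybb and Mpeg1.

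Genes that act with the members were read from 9 further lists, of which 94 of 100 genes were tested. With age alone 0 passed at 30 against 3 months in edgeR's test, with 24 higher at an unadjusted p below 0.05, as were 5.18% of all genes, and 2 lower. DESeq2 called 4 (1.09% of all genes), with Ccl8, Cxcl10 and Runx1 higher and Cd59a lower. With kidney transcripts in the model 15 passed, all higher, where 2.13% of all genes passed and 1.48% were higher. Without 30-month replicate 2 there were 5 (0.548% of all genes): Cx3cl1, Itgal, Fgr, Gpnmb and Runx1. The ligands of Csf1r were level: Csf1 was at 13.2 to 15.1 CPM over the 8 libraries, with a difference of 0.04 ± 0.13, and Il34 had 0.19 ± 0.25. Chemokines and their receptors had the most calls with kidney transcripts in the model, 6 of 17 tested, all higher. Among them were Ccl7 and Ccl8, which attract monocytes, and Cxcl10, an interferon-induced chemokine of T cells. Ccl8 was at 0.475 and 0.890 CPM at 3 months, 0.565 and 0.800 at 12, 1.25 and 0.740 at 24, and 2.20 and 5.73 at 30 months. Ccl7 was at 0.173 and 0.241 CPM at 3 months and 0.835 and 0.996 at 30 months, and Cxcl10 at 0.259 and 0.389 and at 2.46 and 0.940 CPM. For all 3 the 30-month values lay above both 3-month values, as did those of 21.1% of all genes. These 3 were named for their low p in that same comparison, so the absence of overlap adds nothing to it.

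Of the myeloid transcription factors, 1 of 9 passed in that model. It was Runx1, a regulator of blood cell development, at 5.66 and 6.42 CPM at 3 months, 7.77 and 5.25 at 12, 9.08 and 6.62 at 24, and 13.9 and 16.3 at 30 months (1.52, adjusted p = 0.00101). Its difference with age alone was 1.32 ± 0.23 (adjusted p = 0.0895). Which cells of the muscle made Runx1 was not tested. Irf8, a regulator of monocytes and dendritic cells, had 0.65 ± 0.23 and Nr1h3, the sterol sensor LXR alpha, −0.20 ± 0.15 with age alone.
Complement genes beside C1q passed in 2 of 15, C4b and C3ar1, which are the next component of the classical pathway and a receptor for the fragment C3a. C4b was at 27.1 and 45.6 CPM at 3 months and 50.0 and 94.2 at 30 months. Cd59a, which blocks the lytic end of complement, went the other way, passing by DESeq2 only, from 18.6 and 18.5 CPM to 8.44 and 11.1. Of the integrin and oxidase partners 1 of 8 passed, Itgb2, the beta chain that pairs with Itgam and Itgax. It was at 3.63 and 4.45 CPM at 3 months and 5.62 and 8.65 at 30 months. Itga4, the alpha chain of an integrin by which leukocytes hold to vessel walls, had the lowest p of that list and went the other way without passing. It was at 19.03 and 24.7 CPM at 3 months and 15.5 and 14.4 at 30 months, a difference of −0.55 ± 0.16 with age alone (adjusted p = 0.334).
Among the effectors downstream of Tyrobp and Fcer1g, Plek passed (0.94, adjusted p = 0.0293), and of the lysosomal proteins 1 of 12 passed, Gpnmb, a glycoprotein of lipid-laden macrophages. Gpnmb was at 3.56 and 5.38 CPM at 3 months, 9.78 and 4.82 at 12, 9.64 and 4.81 at 24, and 7.23 and 12.5 at 30 months. The lysosomal proteases Lgmn and Ctsz, had 0.46 ± 0.22 and 0.33 ± 0.17 with age alone. Macrophage activation products passed in 2 of 13, among them Slc11a1, a metal transporter of the phagosome, while the cytokines Tnf and Tgfb1 had 2.13 ± 0.79 and 0.48 ± 0.20 with age alone. Scavenger and engulfment receptors passed in 0 of 8. Among these receptors and their ligands Gas6, which bridges dying cells to phagocytes, had 0.49 ± 0.15, the fungal sugar receptor Clec7a 1.14 ± 0.45 and Sirpa, the receptor of the signal that spares living cells, 0.40 ± 0.21 with age alone.

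Markers of other cell types were read beside these results. T and NK cell genes summed to 1.15 to 2.96 CPM over the libraries, with 1.40 and 1.74 at 3 months and 2.09 and 1.92 at 30 months. B and plasma cell genes summed to 1.51 and 1.43 CPM at 3 months and 3.71 and 4.61 at 30 months. Both sums were thus higher at 30 months without overlap, as were 20 of the 32 members and 21.1% of all genes taken singly. The sums are over 10 and 7 genes, so their levels cannot be set against that of the 32 members. Neutrophil genes, whose cells share Lyz2, Itgam, Cybb, Cd14 and Fc receptors with macrophages, summed to 4.08 and 3.86 CPM at 3 months, 2.63 and 2.46 at 12, 5.79 and 1.34 at 24, and 10.6 and 6.60 at 30 months. They were thus higher at 30 months, most in replicate 1, where the members were not highest. Mast cell genes summed to 11.3 and 12.3 CPM at 3 months, 17.96 and 7.61 at 12, 20.5 and 9.37 at 24, and 11.3 and 22.9 at 30 months. Like the members, they were highest in 30-month replicate 2 and higher at each later age in the library with kidney transcripts. Of the 5 mast cell genes, 2 passed at 30 against 3 months with kidney transcripts in the model, Tpsb2 (1.17, adjusted p = 0.0108) and Cma1 (0.94, adjusted p = 0.0372), both mast cell proteases. Dendritic cell genes summed to 12.9 to 17.4 CPM, with overlap between ages. Lymphatic endothelial genes summed to 23.1 to 41.0 CPM with overlap, and among them Ccl21a was at 0 in every library. Genes of fibroadipogenic progenitors, the connective tissue cells of muscle, summed to 1343 to 2213 CPM and were lower at 30 than at 3 months. Like mast cell genes, the sums of dendritic, lymphatic, blood endothelial, red blood cell and fibroadipogenic genes were higher at each later age with kidney transcripts. The muscle fibre sum was lower with them at each of those ages. Sums for T and NK cells, B and plasma cells, neutrophils, satellite cells and adipocytes held neither order throughout. The part of these cell types in the members' levels was not tested.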

How the data were processed

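RNA of flash-frozen gastrocnemius, extracted with Trizol, was made into libraries with the NEBNext Ultra kit and sequenced from both ends, according to the labels. Each library has 1 deposited table of counts per gene in whole numbers, per the file headers. The submitters' processing notes name Trimmomatic 0.36, STAR 2.5.2b, featureCounts of Subread 1.5.2, GRCm38 and mm10. Which annotation release was used, whether counting took strand into account and how reads with several locations were treated was not given in the sources used here. Without strand, overlapping genes cannot be told apart, and 8 of the 32 members overlap another gene. Of the deposited genes, 48970 of 49315 were matched by identifier to GENCODE M21, 27 of the 32 members with the same ends.

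Counts were tested with edgeR 4.0.16 (R 4.3.3), by the quasi-likelihood test with robust dispersion, trimmed-mean (TMM) scaling and the filterByExpr filter. All 8 libraries were fitted together on 4 age groups (4 residual degrees of freedom) or on age as a slope. P-values were adjusted by Benjamini-Hochberg over 19571 genes, with calls at 0.05, and standard errors are the log2 difference divided by the root of the F statistic. A second model added the presence of kidney transcripts, defined as 9 kidney genes summing above 1 CPM. DESeq2 1.42.0, other scalings, no filter, a replicate block and the omission of each library were alternatives. Log2 CPM used a prior count of 2. The limit of detection is 3 counts per library and covers counting error only. Scripts were tested on simulated counts.

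The members and all lists were chosen with earlier results of these data known. All 32 members are reported. From each further list, at most 3 genes with the lowest p at 30 against 3 months were named. Ccl21a, Tpsb2, Cma1 and Cx3cl1 were named after their values were seen.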

Additional observations from a re-analysis of the deposited data

How the results depend on the processing

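Counts of members past the threshold were 0 with age alone in all 6 comparisons, and they stayed at 0 with median-ratio (RLE) size factors or library totals in place of trimmed-mean scaling. Without the low-count filter 5 members passed at 30 against 3 months, 3 at 30 against 12 months and 7 for any difference among the ages. DESeq2 called 2, 1 and 3 in that order and 2 for the slope. With kidney transcripts in the model the counts were 20, 6, 17 and 8. Fits of that model added after the data were seen left out 1 of the 30-month libraries, which leaves a single library at that age. Without 30-month replicate 2 each of these counts was lower. Without replicate 1 the count at 30 against 12 months was the same and the others were lower. The share of all genes is not given for each of these fits, so their counts are not listed here. Leaving out each library in turn, with age alone, gave 0 to 1 member at 30 against 3 months and for any difference among the ages, and 0 in the other 4 comparisons.

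Over the same single-library omissions, the median log2 difference at 30 against 3 months ran from −0.50 to 0.29 for the resident genes, from 0.38 to 1.39 for the monocyte and recruited cell genes, from 0.0800 to 0.93 for C1q, from 0.49 to 1.28 for Fc receptors and adaptors, from 0.52 to 1.22 for lysosomal and killing genes and from 0.21 to 0.71 for Ptprc, which was at 0.91 with kidney transcripts in the model and without 30-month replicate 2. At 30 against 12 months the ranges were −0.22 to 0.48, 0.60 to 1.83, 0.0575 to 0.94, 0.25 to 1.43, 0.52 to 1.28 and 0.78 to 1.48 in that order, and 0.59 to 1.27 for the lineage genes.

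Of 1152 recomputed values of single members, 1122 kept their direction. Scaling, the filter, DESeq2 and the replicate block turned none. At 30 against 3 months, leaving out a library gave −0.16 to 0.84 for Timd4, −0.58 to 0.10 for Lyve1, −0.50 to 0.40 for Folr2, −0.14 to 0.29 for Mrc1, −0.53 to 0.17 for Cd163, −0.24 to 0.84 for Itgam, −0.48 to 0.74 for Fcgr3 and −0.17 to 0.75 for Fcer1g. At 30 against 12 months it gave −0.17 to 0.82 for Timd4, −0.26 to 0.48 for Lyve1, −0.49 to 0.49 for Folr2, −0.22 to 0.48 for Cd163, −0.0426 to 1.37 for Fcgr3, −0.28 to 0.64 for Fcer1g and −0.000114 to 1.06 for Cd68. With kidney transcripts in the model, Lyve1 was at 0.0175 and Cd163 at 0.0827 against 3 months, and 0.10 and 0.17 without 30-month replicate 1. Without replicate 2 in that model, Timd4 was at −0.0743 against 3 months and −0.13 against 12 months, where Lyve1 was at −0.0190, Folr2 at −0.0639 and Cd163 at −0.0013. The cause of these turns was not tested.

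Deviations from the age means of libraries with the same replicate number correlated at −0.36 to 0.26 across genes. The highest was between 12 and 24 months, where replicate 1 carries kidney transcripts at both ages. The negative ones all involved 30 months, where replicate 2 carries them. These correlations therefore cannot show whether the replicate numbers pair the libraries. With the replicate number as a block, 0 members passed in each comparison, and 13 genes of all tested passed at 30 against 3 months, where 29 did without the block. The 2 libraries an age and 4 residual degrees of freedom limit what could pass, and counts of 2 to 23 limit Ly6c2.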
